A study of Mus musculus with 28 samples.

Results

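The chemokines and chemokine receptors of mouse skin were followed through the healing of a punch wound. They were taken from the deposited count table by symbol: every row named Ccl, Cxcl, Cx3cl, Xcl, Ccr, Cxcr, Cx3cr, Xcr or Ackr with a number and at most 1 further letter. This found 58 genes among 29068 rows, of which 37 were ligands and 21 receptors. Enough reads for a test were present for 55, namely 34 ligands and all 21 receptors. Ccl26, Cxcl15 and Cxcl17 stayed close to 0 counts and were left untested.

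RNA-seq had been done on wound-site skin of C57BL/6J mice, with 4 libraries on each of days 0, 3, 5, 7, 10, 12 and 14, and the only treatment in the labels was natural healing. By the study's methods the mice were wild type for Mlkl (MLKL+/+), 8 weeks old and of both sexes, and wounds were made in the shaved back with a 6-mm punch and later taken whole, with scab and rim. The labels call the first time point day 0, while the study counts from day 1, which it defines as the day of wounding. Whether these are the same time point is not stated in the sources used here, so day 0 is used here only as the reference the labels name. The labels do not tie libraries to animals, so p-values measure the spread between libraries. All 28 libraries held at least 2101 counts of the Y-linked Ddx3y and at most 13 of Xist, the pattern of male tissue. No library had the pattern of female tissue, although the methods name both sexes.

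Chemokines are small secreted proteins that guide leukocytes along gradients by binding G protein-coupled receptors on the cell surface. They are named by the spacing of their first cysteines (CC, CXC, CX3C and XC). CXC ligands with the residues Glu-Leu-Arg (ELR) before that motif attract neutrophils through CXCR2 and CXCR1, inflammatory CC ligands attract monocytes through receptors such as CCR1 and CCR2, and homeostatic ligands such as CCL21, CXCL12 and CCL27 guide dendritic cells and lymphocytes through resting tissue. Atypical receptors (ACKR) bind and remove chemokines without G protein signalling. In a skin wound, neutrophils are known to arrive first and monocytes to follow.

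Several members lie side by side in the genome. On GRCm38, with GENCODE M21 genes, Cxcl5, Cxcl3, Cxcl15, Cxcl1 and Cxcl2 occupy chr5:90759360-90905938. The 250 bases before the RefSeq start are shown for 3 of these neighbours because they are ELR ligands that rose over the same days, and for Cxcl10 because it is a CXC ligand of another kind with a smaller change. Capitals mark matches, on either strand, to the NF-kappaB motif and, in Cxcl10, to the interferon-stimulated response element (ISRE, searched as GAAA, any 2 bases and GAAA). The build is GRCm38.p6 and each sequence runs 5′ to 3′ on the strand of the gene.
Cxcl1, chr5:90890995-90891244, plus strand: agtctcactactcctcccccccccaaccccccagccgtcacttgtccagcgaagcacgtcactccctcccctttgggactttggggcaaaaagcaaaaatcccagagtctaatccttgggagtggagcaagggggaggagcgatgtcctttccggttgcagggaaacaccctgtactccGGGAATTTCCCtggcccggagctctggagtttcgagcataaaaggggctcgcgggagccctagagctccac
Cxcl2, chr5:90903649-90903898, plus strand: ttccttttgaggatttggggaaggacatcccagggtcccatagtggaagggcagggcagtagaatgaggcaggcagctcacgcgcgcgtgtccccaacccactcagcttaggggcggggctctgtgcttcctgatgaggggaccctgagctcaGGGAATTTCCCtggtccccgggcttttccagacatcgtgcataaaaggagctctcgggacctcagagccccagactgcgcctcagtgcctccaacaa
Cxcl3, chr5:90785851-90786100, plus strand: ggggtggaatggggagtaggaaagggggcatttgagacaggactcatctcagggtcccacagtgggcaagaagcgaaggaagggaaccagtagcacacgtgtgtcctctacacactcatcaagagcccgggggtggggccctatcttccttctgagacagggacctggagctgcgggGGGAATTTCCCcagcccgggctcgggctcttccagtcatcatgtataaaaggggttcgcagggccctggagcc
Cxcl10, chr5:92348890-92349139, minus strand: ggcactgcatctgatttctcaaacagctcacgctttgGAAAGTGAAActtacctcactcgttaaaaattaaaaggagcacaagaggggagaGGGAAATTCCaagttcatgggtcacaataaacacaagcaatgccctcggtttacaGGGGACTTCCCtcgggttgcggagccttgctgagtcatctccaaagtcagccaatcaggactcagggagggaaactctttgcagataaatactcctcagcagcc
The 3 neighbours held the same match of 11 bases, which is 2 overlapping hits. It lay 61 to 71 bases before the start of Cxcl1, 87 to 97 before that of Cxcl2 and 63 to 73 before that of Cxcl3. Cxcl10 had NF-kappaB matches 94 to 104 and 150 to 159 bases before its start and the ISRE match at 204 to 213. RefSeq promoters were matched for 44 of the 58 members. The NF-kappaB motif was in 11 of these 44 (25%), against 8.23% of 27025 genes, and the ISRE was in 3 (6.82%), against 3.46%. Of the 14 members called higher on day 3 that had a promoter, 5 held the NF-kappaB motif, namely Ccl9, Ccr1, Cxcl1, Cxcl2 and Cxcl3, and none held the ISRE. The NF-kappaB motif was also in 1 of 6 called lower (Ackr2) and 2 of 5 that passed as lower without a call (Ccl1 and Ccr6). It was in 1 of 8 that passed as higher without a call (Cxcl10) and 2 of 10 that did not pass (Ccl20 and Ccr3). A match is only a run of letters in this window.

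Depth was even, from 36706513 to 40655764 counts per library, but the day 0 libraries were not alike. Their biological coefficient of variation was 26.5%, against 5.77 to 10.8% on the other days. Replicates 2 and 3 deviated from the day mean together (r = 0.35 across genes). Replicates 1 and 4 came next (r = -0.08), and the mixed pairs ran from -0.60 to -0.53. A mean shared by the 4 libraries pulls such values below 0. Both of replicates 1 and 4 lay above both of 2 and 3 for 18 of the 55 members, including Cxcl1, Cxcl2, Cxcl3, Ccl2, Ccl3 and Ccl4, and below them for 17, including Ccl8, Ccl20, Ccl24, Ccr3 and Cxcl13. Over all genes these shares were 35.5% and 27.5%. The 9 neutrophil markers fixed as a list moved the same way, with summed FPKM of 55, 19.7, 16.9 and 63.9 in replicates 1 to 4, and their part in the members' differences was not tested. Other lists divided by the same pairs. Fibroblast markers summed to 5121, 11799, 11369 and 3048 FPKM in replicates 1 to 4, dendritic and Langerhans cell markers to 47, 106, 105 and 42.5, epidermal keratinocyte markers to 2997, 1659, 1778 and 3323 and skeletal muscle markers to 15220.2, 9794, 10093 and 15889.8. Their part was not tested either.

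A gene is said to have passed the test at an adjusted p below 0.05 in edgeR's quasi-likelihood test (Benjamini-Hochberg over 18107 genes), and to be called when its log2 fold change also exceeded 1.5, or 2.83-fold. Levels are fragments per kilobase scaled to library size (FPKM) as deposited, given as mean ± SD of 4 libraries or for replicates 1 to 4 in that order. Fold changes with their standard errors (SE) are on the log2 scale of the count fit. Where 2 groups of 4 libraries do not overlap, the exact two-sided permutation test gives p = 0.0286, the smallest it can give. In whole tissue, fewer cells of a type and less RNA per cell cannot be told apart.

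Of the days compared with day 0, days 3 and 5 had the most members called. On day 3, 21 of the 55 members were called higher than on day 0, where 6.44% of all genes were, and 7 were called lower, where 12.3% were. On day 5 the counts were 19 higher (5.52% of all genes) and 7 lower (8.22%). On day 7 they were 12 higher (4.52%) and 2 lower (4.64%), and on day 10 they were 9 higher (4.22%) and 9 lower (5.02%). On day 12 no member was called higher, against 3.69% of all genes, and 3 were called lower, against 3.38%. For higher calls on day 12, an unadjusted p gave 1, limma with quality weights and total counts each gave 2 and DESeq2 gave 0. Day 0 replicates 2 and 3 alone, a split chosen after seeing the data, gave 5 higher and 5 lower. On day 14, 1 member was called higher (5.1%) and 16 lower (8.71%). Markers of other cells moved with these days. All 6 skeletal muscle markers passed as lower on each of the 6 days, and all 6 hair follicle markers passed as lower on day 3 and as higher on day 14. On day 14 all 5 brown or beige fat markers passed as higher, all 6 fibroblast markers as lower, 4 of 5 mast cell markers as lower and 5 of 6 blood endothelial markers as lower. Their part in the members' counts was not tested.

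Without the fold limit, the members that passed the test were 31 higher and 12 lower on day 3 (31.8% and 34.8% of all genes), 30 and 16 on day 5 (29% and 30.6%), 26 and 12 on day 7 (25.6% and 24.8%), 12 and 24 on day 10 (23.5% and 26.9%), 3 and 19 on day 12 (21.7% and 25.6%), and 5 and 34 on day 14 (28.2% and 34.5%). The median log2 fold change of the members was 0.94 on day 3 and -1.15 on day 14, against -0.03 and -0.06 for all genes tested, and both were the same with Cxcr1 at the bound given below. Members whose libraries all lay above, or all below, those of day 0 numbered 30 and 11 for day 3 (28.2% and 28.6% of all genes), 30 and 10 for day 5 (23% and 23.2%), 20 and 7 for day 7 (19.9% and 19.3%), 12 and 18 for day 10 (19.5% and 21.9%), 3 and 12 for day 12 (18.6% and 20.2%), and 4 and 28 for day 14 (23.4% and 27.3%). Mean FPKM was highest on day 3 for 22 of the 55 members, on day 0 for 13 and on day 5 for 10. It was lowest on day 14 for 31. Cxcl9 alone passed as higher on all 6 days, and Ackr2, Ackr4, Ccl21a, Ccl24, Ccl27a, Ccr4 and Xcr1 passed as lower on all 6. Some of these were fragile. Ccl21a on day 12 (-0.44) did not pass in 4 of 8 fits without 1 library, namely day 0 replicates 2 and 3 and day 12 replicates 2 and 4, and was -0.07 against day 0 replicates 1 and 4. Ccl24 on day 7 did not pass in the fit of 8 libraries, and Xcr1 on day 7 did not pass against day 0 replicates 2 and 3, at -0.44. No member was called on all 6 days, and 17 were never called.

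The contrasts between wound days leave the day 0 libraries out of the difference. From day 3 to day 7, 2 members were called higher (6.16% of all genes) and 15 lower (2.59%). From day 3 to day 14, 3 were called higher (8.92%) and 29 lower (9.48%). A joint test over the 6 wound days was passed by 51 of the 55 members, against 85.1% of all genes.

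**Figure D1:**
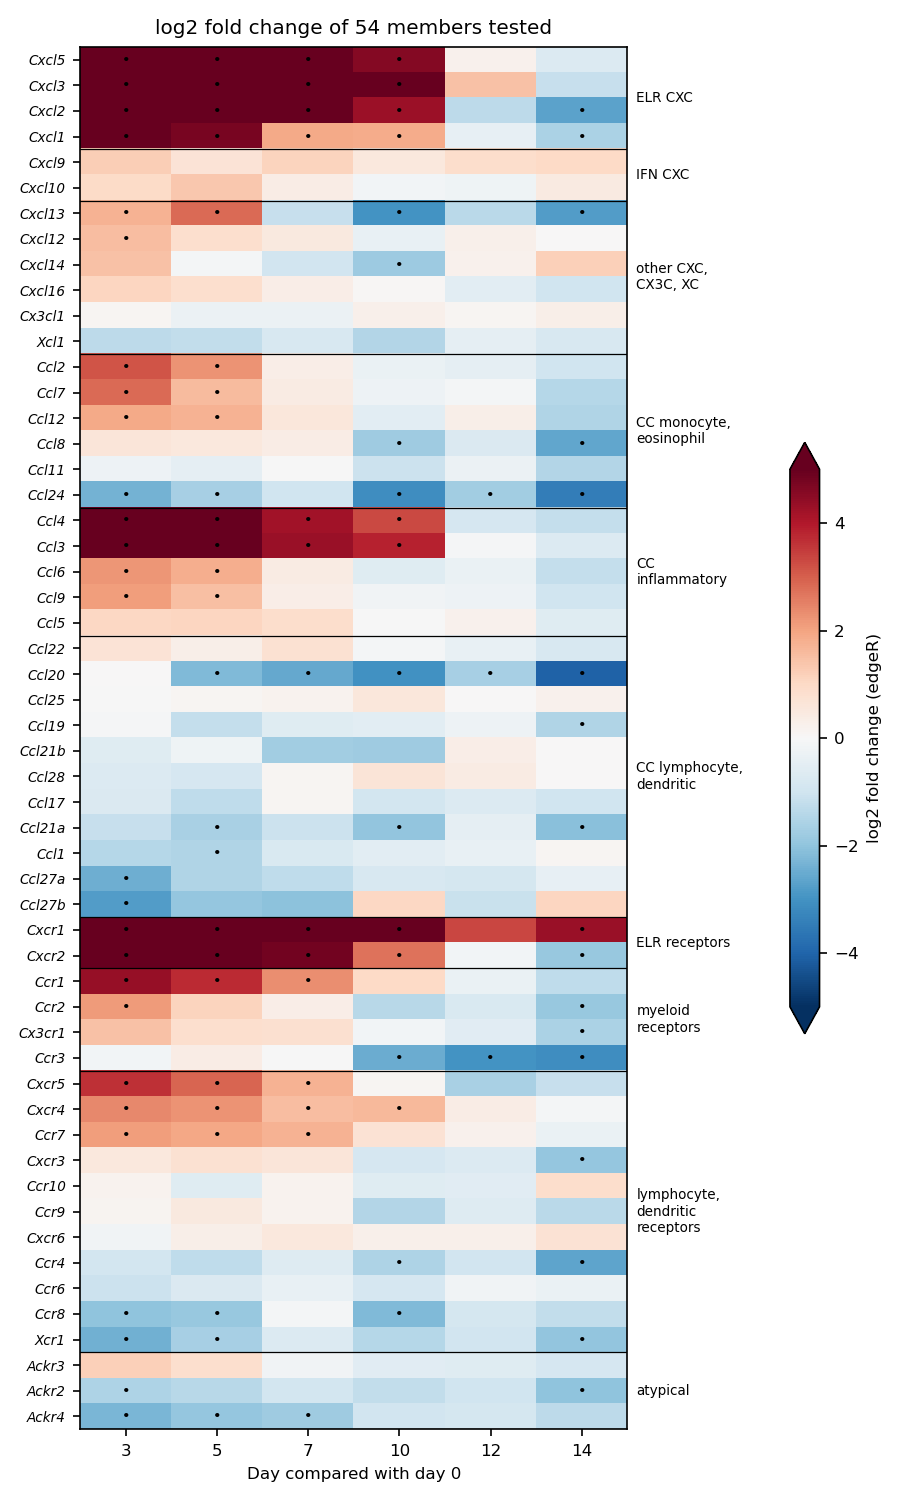
log2 fold change against day 0 of 54 members tested, by day and grouped by role, with the colour scale ending at 5 in each direction and a dot on each called change. The ELR ligands and their receptors are red from day 3 to day 10, and most rows turn blue by day 14, when 16 members were called lower. The colour of Cxcr1 is a fitted value against 0 counts.

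In the fit of all 28 libraries, the 4 ELR ligands tested had the largest log2 fold changes of all ligands on day 3. This order depends on the day 0 libraries used, since Ccl3 and Ccl4 had larger values against replicates 2 and 3, as given below. All 4 tested were called higher on days 3, 5, 7 and 10, and none was called in either direction on day 12. Cxcl3 still passed as higher on day 12 (1.48) and was 2.06 without day 0 replicate 4, but did not pass in 3 of 8 fits without 1 library. Cxcl5 is a neutrophil attractant that epithelial cells are known to make. It read 0.882, 0.0597, 0.108 and 0.0823 FPKM in the day 0 libraries and 146, 147, 144 and 146 on day 3. Replicate 1 held most of the day 0 signal, and even so it lay far below every day 3 library. The log2 fold change was 9.05 (SE 0.30, adjusted p = 8.59e-20), and without that replicate it was 10.85. Cxcl5 then fell to 44.6 ± 6.15 FPKM on day 5, 17.4 ± 0.916 on day 7 and 7.16 ± 0.68 on day 10.

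Cxcl2 (MIP-2) had the highest mean FPKM of the ELR ligands on every day. Its day 0 libraries read 3.07, 0.547, 0.165 and 8.65 FPKM, its day 3 libraries 236, 246, 249 and 328 and its day 5 libraries 341, 284, 305 and 375. Replicate 4 of day 0 was the highest of its day and still lay under the lowest day 3 library. Its log2 fold change was 6.49 (SE 0.47, adjusted p = 1.74e-12) on day 3 and 6.78 (SE 0.48, adjusted p = 1.41e-12) on day 5. With day 0 reduced to replicates 1 and 4 the day 3 value was 5.61, and with replicates 2 and 3 it was 9.58, so its direction held and its size did not. Means of 115 ± 21.2 FPKM on day 7 and 61.6 ± 11 on day 10 followed. On day 14 Cxcl2 read 0.641, 0.405, 0.419 and 0.601 FPKM, inside the day 0 range, and its lower call (-2.69) turned to 0.40 against day 0 replicates 2 and 3 alone. The lower value that passed on day 12 (-1.31) turned likewise, to 1.77.

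Cxcl3, an ELR ligand of the same cluster, rose over the same days. It read 0.377, 0, 0.050 and 0.428 FPKM on day 0, 92.4, 98.5, 99.7 and 125 on day 3, and later 109.6, 113, 121 and 140.2 on day 5. No library of day 3 or 5 overlapped day 0, and the log2 fold changes were 9.0 (SE 0.29, adjusted p = 7.29e-20) and 9.2 (SE 0.29, adjusted p = 1.04e-19). Of the 50-base words in their transcripts, 5.84% for Cxcl2 and 4.24% for Cxcl3 recur in other transcripts. Against day 0 replicates 1 and 4 the day 3 value of Cxcl3 was 8.11, and against replicates 2 and 3 it was 11.94.

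Cxcl1 (KC) had the tightest day 0 values of the group, 1.1, 0.724, 0.72 and 0.827 FPKM. On day 3 it read 65.8, 60.5, 63.2 and 68.7 FPKM and on day 5 21.1, 19.7, 22.5 and 24.2. These groups lay far apart, and the log2 fold changes were 6.31 (SE 0.13, adjusted p = 1.99e-23) and 4.74 (SE 0.13, adjusted p = 2.55e-21). Its decline was early: from day 3 to day 7 it dropped by 4.40 on the log2 scale (SE 0.11, adjusted p = 1.97e-21), while Cxcl2 dropped by 1.26 (SE 0.36, adjusted p = 0.00458). Whether these declines differ from each other was not tested. On day 14 Cxcl1 was called lower than day 0, at 0.323, 0.379, 0.264 and 0.245 FPKM with a log2 fold change of -1.59 (SE 0.19, adjusted p = 5.87e-08). The value came under the limit for a call without day 0 replicate 1, at -1.35, or day 14 replicate 4.

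CXCR2 is the main receptor of these ligands on neutrophils. Cxcr2 read 0.418, 0.15, 0.277 and 0.236 FPKM on day 0 and 54, 56.7, 54.2 and 57 on day 3. Its log2 fold change was 7.73 (SE 0.16, adjusted p = 1.99e-23). It then read 25.7 ± 0.778 FPKM on day 5, 7.64 ± 0.65 on day 7 and, by days 10 and 12, 1.84 ± 0.276 and 0.272 ± 0.0802. The day 12 libraries overlapped those of day 0, and day 14 lay below them, at 0.0577, 0.108, 0.0566 and 0.0918 FPKM (log2 fold change -1.9, SE 0.30, adjusted p = 3.95e-06). Cxcr1, the second ELR receptor, had 0 counts in all 4 day 0 libraries and 189, 228, 216 and 145 counts on day 3. Against a floor of 3 counts per library it was at least 67.0-fold higher on day 3, 13.5-fold on day 5, 5.56-fold on day 7 and 2.85-fold on day 10. It was the only member called higher on day 14, on counts of 1, 1, 1 and 7, most of them in replicate 4, and that call was lost with quality weights. In the fit of 8 libraries its calls on days 7, 10 and 14 were lost. No fold is given on days 12 and 14, when the mean was under the floor.

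The sum of transcripts that mark neutrophils moved with this group. The summed FPKM of the 9 markers ran from 16.9 to 63.9 on day 0 to 7614 to 9733 on day 3. It then lay between these, at 2685 to 3502 on day 5, 970.5 to 1806 for day 7 and 437 to 493 for day 10, and was back at 27.2 to 36 by day 12. All 9 were called higher on day 3, where 6.44% of all genes were. S100a8 and S100a9 carried the sum, at 3050 and 4970 FPKM on day 3. Single markers took other courses. Camp had its highest mean on day 14, at 4.18 FPKM, and Ngp and Ltf peaked on day 5. On each of days 12 and 14, 1 of the 9 was called higher, beside 1 and 3 called lower. Ly6g and Ngp were at 0 in every day 0 library. The part of these cells in the result was not tested.

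**Figure D2:**
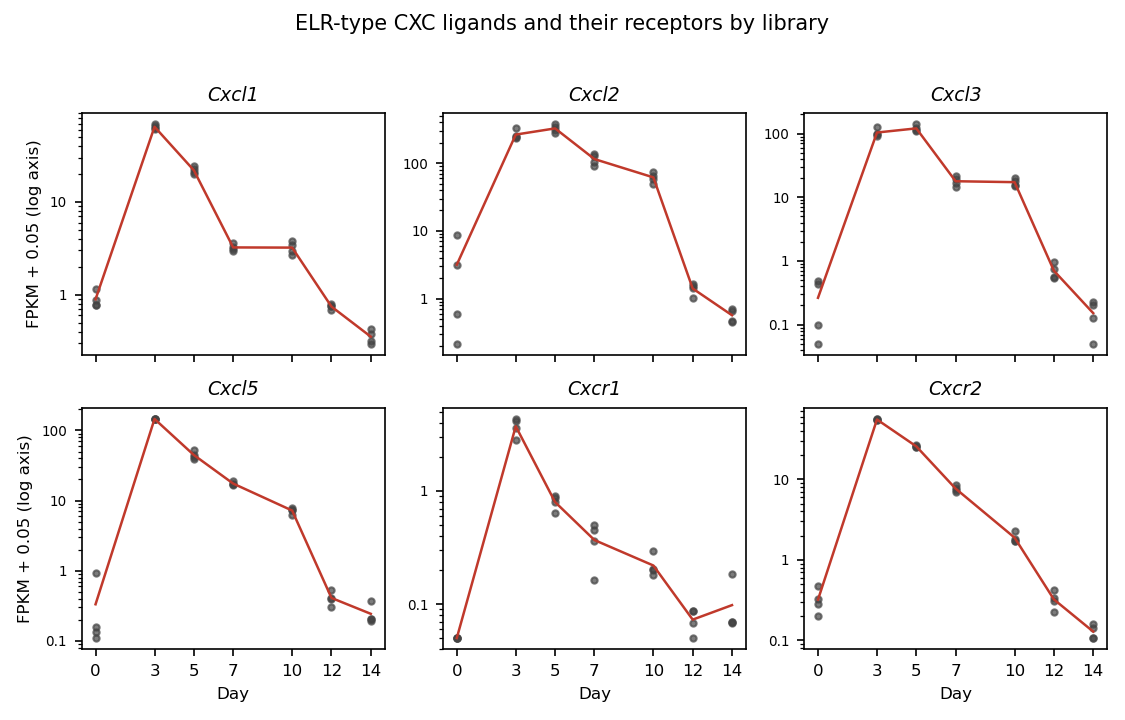
FPKM plus 0.05 on a log axis for 4 ELR ligands and 2 receptors by day, with a point for each library and a line through the means of 4. The mean of each gene lies above its day 0 mean from day 3 to day 10 and is lower on day 10 than on day 3. On day 12 Cxcl2 is back at 1.36 FPKM and Cxcr2 at 0.272.

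CCL3 and CCL4 (MIP-1alpha and MIP-1beta), inflammatory CC ligands, peaked on day 5. Ccl3 read 2.63, 0.438, 0.387 and 4.1 FPKM on day 0, 53.6, 61, 62.4 and 77.7 on day 3, followed by 118, 95.6, 108 and 131 on day 5. Its log2 fold change was 5.15 (SE 0.34, adjusted p = 2.07e-13) on day 3 and 5.97 (SE 0.35, adjusted p = 2.35e-14) on day 5, and no wound library of these days overlapped day 0. Ccl4 read 2.76, 0.262, 0.116 and 3.92 FPKM on day 0, 52.4, 55.8, 61.6 and 71.7 on day 3, and later 76.3, 60.5, 69.1 and 91.1 on day 5 (log2 fold change 5.46, SE 0.40, adjusted p = 3.83e-12). Both stayed called on days 7 and 10, when Ccl3 averaged 37.6 ± 5.43 and 27.6 ± 7.3 FPKM and Ccl4 31.9 ± 6.11 and 17.6 ± 3.63. On day 12 both overlapped day 0. Against day 0 replicates 1 and 4, the higher pair, the day 3 values were 4.35 for Ccl3 and 4.28 for Ccl4. Against replicates 2 and 3 they were 7.32 and 8.34.

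Ccl6 and Ccl9, mouse ligands of CCR1, were abundant in every library. Ccl6 read 174, 149, 139 and 132 FPKM on day 0, 618, 657, 646 and 693 on day 3, followed by 76.1, 69.1, 63.8 and 77.4 on day 14. The day 3 log2 fold change was 2.19 (SE 0.08, adjusted p = 5.37e-19) and the day 14 value -1.18 (SE 0.08, adjusted p = 3.23e-13), so it passed in opposite directions at the start and end. Ccl9 read 69.9, 44.8, 47 and 45.3 FPKM on day 0 and 214 ± 10.3 on day 3 (log2 fold change 2.1, SE 0.11, adjusted p = 7.32e-16), and fell to 28.4 ± 2.6 on day 14. Ccl5 (RANTES), an inflammatory ligand made by T cells among others, read 13.9, 10.03, 8.23 and 12.6 FPKM on day 0 and 21.9, 20.9, 23.3 and 25 on day 5 (log2 fold change 1.07, SE 0.13, adjusted p = 5.27e-08), under the limit for a call. On chromosome 11 these 5 genes are neighbours, at chr11:83525778-83664683, and all 5 passed as higher on day 3 (31.8% of all genes), 4 of them called (6.44%).

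The ligands of CCR2 rose on day 3 and had declined by day 7. Ccl2 (MCP-1) read 25.6, 6.89, 7.45 and 12.8 FPKM on day 0, 115, 108, 105 and 117 on day 3, and later 17.2, 15.5, 15.4 and 18.4 on day 7. Its log2 fold change was 3.13 (SE 0.24, adjusted p = 6.18e-12) on day 3 and 0.33 (SE 0.24, adjusted p = 0.26) on day 7. Ccl7 (MCP-3) read 29.6, 18.8, 16.2 and 13.6 FPKM on day 0, 140.3, 132, 142 and 128 on day 3 (log2 fold change 2.85, SE 0.15, adjusted p = 1.48e-15) and 6.58, 8.67, 7.91 and 9.11 on day 14 (log2 fold change -1.41, SE 0.15, adjusted p = 8.37e-09). Ccl12 (MCP-5) read 8.83 ± 3.2 FPKM on day 0, 31.8 ± 2.42 on day 3 (log2 fold change 1.9, SE 0.19, adjusted p = 1.75e-09) and 28.9 ± 4.08 on day 5. The 3 genes were called higher on days 3 and 5 only, and the day 3 value of Ccl2 was 3.74 without day 0 replicate 1. The day 5 value of Ccl7 (1.56) came under the limit for a call without day 0 replicate 4, at 1.44. The lower value of Ccl2 on day 14 (log2 fold change -0.98, SE 0.25, adjusted p = 0.00128) no longer passed without day 0 replicate 1, at -0.34.

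Ccl8 (MCP-2) had the highest mean FPKM of the chemokine transcripts on every day and fell late. In day 3 replicate 4 it lay below Ccl6. It read 399, 689.9, 691 and 292 FPKM on day 0 and 880.0, 712, 812 and 621 on day 3, and these groups overlapped (log2 fold change 0.60, SE 0.17, adjusted p = 0.00294). Against day 0 replicates 2 and 3 that value was 0.19 and did not pass, and against replicates 1 and 4 it was 1.23. On day 10 it read 159, 159.7, 158 and 149.7 FPKM (log2 fold change -1.78, SE 0.18, adjusted p = 2.49e-09), on day 12 399, 334, 376 and 280.1 and on day 14 92.1, 85.8, 94.8 and 102 (log2 fold change -2.59, SE 0.18, adjusted p = 1.41e-12). Days 10 and 14 lay below every day 0 library, day 12 did not. Against day 0 replicates 1 and 4 the day 14 value was -1.94 and the day 10 value -1.20, the latter under the limit for a call. The eotaxins, ligands of CCR3 on eosinophils, passed as higher on no day. Ccl11 read 39.8, 68, 63.2 and 26.6 FPKM on day 0, 40.7, 40.2, 36.1 and 41.2 on day 3, followed by 19.2, 19.9, 18.4 and 20.6 on day 14 (log2 fold change -1.47, SE 0.16, adjusted p = 6.98e-09). The day 14 value of Ccl11 was -0.82 against day 0 replicates 1 and 4. Ccl24 read 6.2, 18.6, 20.9 and 5.01 FPKM on day 0, 1.97, 2.43, 2.63 and 2.54 on day 3 (log2 fold change -2.35, SE 0.30, adjusted p = 8.38e-08) and 1.03, 1.13, 1.71 and 1.2 on day 14 (log2 fold change -3.44, SE 0.32, adjusted p = 3.11e-10). It passed as lower on all 6 days, but against day 0 replicates 1 and 4 its day 3 value was -1.13, its day 14 value -2.19, and its day 7 value turned to 0.18.

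Ccr1 and Ccr2, receptors of ligands described above, rose on day 3. Ccr1 read 6.27, 4.01, 3.82 and 3.24 FPKM on day 0, 79.7, 84.5, 83.3 and 93.2 on day 3, and later 2.23, 1.86, 1.59 and 2.23 on day 14. The groups did not overlap, and the log2 fold changes were 4.35 (SE 0.15, adjusted p = 3.39e-19) and -1.27 (SE 0.15, adjusted p = 4.83e-08). Ccr2, which marks inflammatory monocytes, read 23.6, 20.9, 19.4 and 16.4 FPKM on day 0, 83.2, 87.1, 81.8 and 83.9 on day 3 (log2 fold change 2.12, SE 0.10, adjusted p = 6.93e-17) and 8.5, 8.02, 7.56 and 8.2 on day 10 (log2 fold change -1.37, SE 0.09, adjusted p = 2.53e-12). Its day 3 libraries lay above every day 0 library and its day 10 libraries below. Cx3cr1, the fractalkine receptor of resident and patrolling myeloid cells, read 2.73, 1.47, 1.28 and 2.28 FPKM on day 0, 5.2, 5.2, 5.22 and 5.26 on day 3 (log2 fold change 1.48, SE 0.15, adjusted p = 1.31e-09) and 0.768, 0.805, 0.538 and 0.764 on day 14 (log2 fold change -1.56, SE 0.16, adjusted p = 3.01e-09, and -1.06 against day 0 replicates 2 and 3, under the limit for a call, as it was without day 0 replicate 1 or 4 or day 14 replicate 3). Each of the 3 peaked on day 3 and was lowest on day 14. Ccr3, the eotaxin receptor, passed as higher on no day. It read 0.147, 1.05, 1.08 and 0.0156 FPKM on day 0 and 0.125, 0.0666, 0.0506 and 0.0448 on day 14. Its lower call on day 14 (log2 fold change -3.11, SE 0.62, adjusted p = 9.51e-05) rested on day 0 replicates 2 and 3 and was -0.25 against the other pair. The 4 eosinophil markers summed to at most 1.70 FPKM in any library.

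The 8 monocyte and macrophage markers summed to 263 to 365 FPKM on day 0, 968 to 999 for day 3, 505 to 542 for day 7 and 110.5 to 125 at the end, on day 14. Ccl6, Ccl7, Ccl9, Ccr1 and Ccr2 passed as higher on day 3 and as lower on day 14. So did members of other roles, among them Ackr3, Ccl22, Cxcl1, Cxcl13, Cxcl16 and Cxcr2. This course was therefore not particular to the ligands and receptors of monocytes. Of all genes, 31.8% passed as higher on day 3 and 34.5% as lower on day 14. Ccl21a, Ccl24 and Ccl27a passed as lower on both days. The part of the markers was not tested. From day 3 to day 14, the myeloid receptors Ccr1, Ccr2, Ccr3 and Cx3cr1 were called lower, as were all 5 of Ccl3, Ccl4, Ccl5, Ccl6 and Ccl9 and all 6 tested ELR ligands and receptors, where 9.48% of all genes were.

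**Figure D3:**
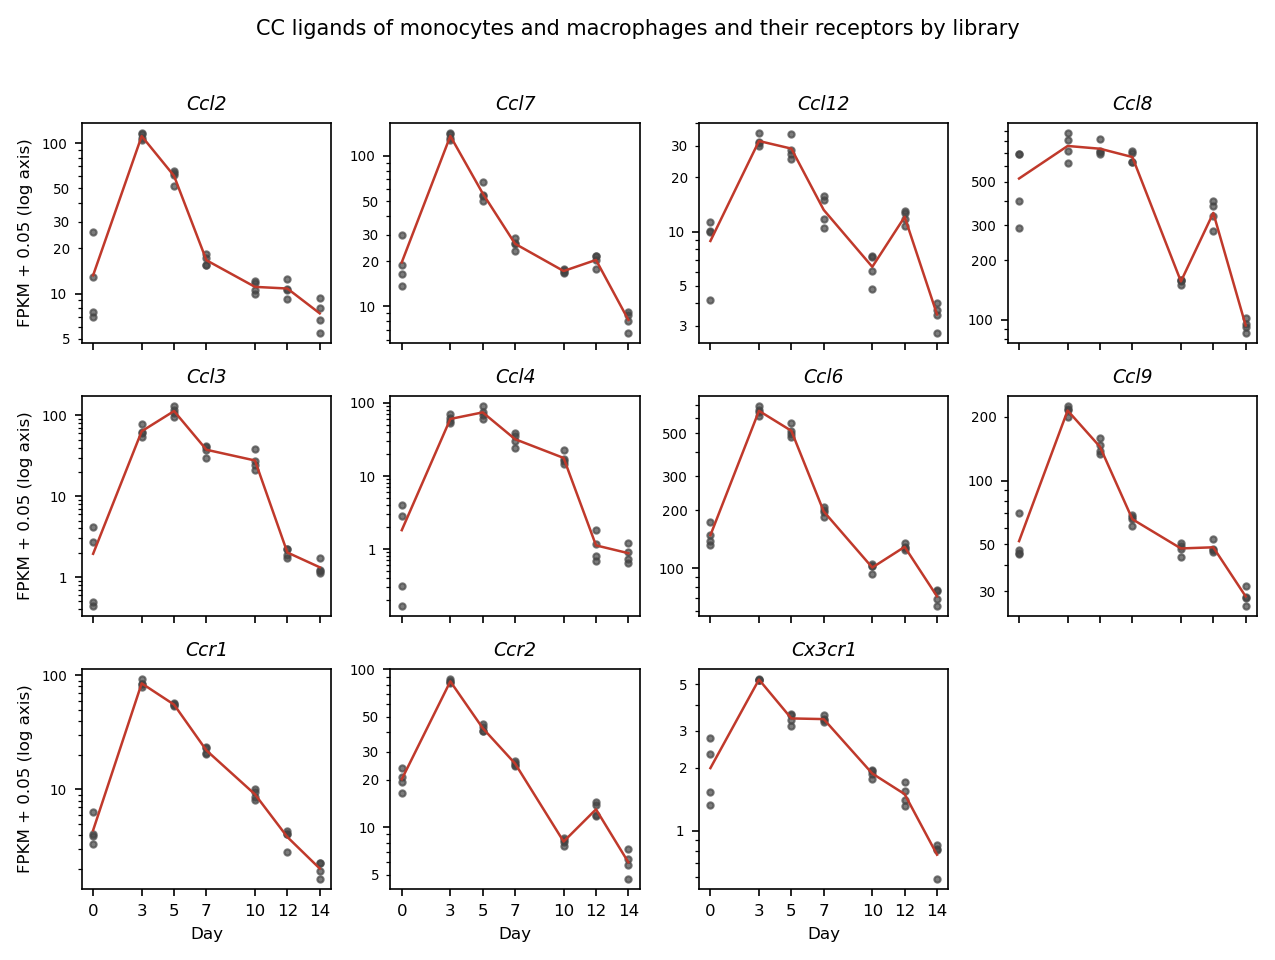
FPKM plus 0.05 on a log axis for 8 CC ligands and 3 receptors by day, with a point for each library and a line through the means of 4. Ccl3 and Ccl4 are highest on day 5, at 113 and 74.3 FPKM, while Ccr1, Ccr2 and Cx3cr1 are highest on day 3.

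Among the other CXC ligands, the courses diverged. Cxcl12, the ligand of CXCR4 and ACKR3 made by stromal cells, read 37.5, 54.2, 51.1 and 28.5 FPKM on day 0 and 125, 117, 119.8 and 113 on day 3 (log2 fold change 1.53, SE 0.11, adjusted p = 2.53e-12, and 1.42 without day 0 replicate 4, under the limit for a call), and ended at 45.5, 46.8, 48.3 and 51.1 on day 14 (log2 fold change 0.04, SE 0.11, adjusted p = 0.795). Cxcl13, the B cell attractant that binds CXCR5, read 9.54, 13.1, 12.7 and 3.35 FPKM on day 0 and 71.2, 59.6, 62.6 and 77.3 on day 5 (log2 fold change 2.84, SE 0.23, adjusted p = 1.51e-11). It then dropped to 4.31, 5.01, 3.84 and 4.52 on day 7 and 0.957, 1.27, 1.55 and 1.35 on day 10 (log2 fold change -2.97, SE 0.27, adjusted p = 5.07e-10). Day 5 lay above every day 0 library and day 10 below every one. Cxcr5 itself was called higher on days 3, 5 and 7 with 0.426 to 0.583 FPKM on day 3, and the day 7 call was lost in the fit of 8 libraries. The 4 B cell markers summed to 2.24 to 2.9 FPKM on day 0, 3.45 to 4.13 on day 3 and 2.49 to 4.0 for day 5, and the day 3 libraries lay above every day 0 library. Their part was not tested.

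Cxcl14, a chemokine of resting skin and other epithelia, had a course of its own. It read 35.1, 33.1, 32.8 and 27.8 FPKM on day 0, 83.1, 86.7, 82 and 90.5 on day 3, followed by 9.16, 10.2, 9.42 and 9.57 on day 10. It then returned to 38.8, 46.5, 39.99 and 41.5 on day 12 and reached 82.4, 77.8, 81.2 and 78.3 on day 14. The libraries within each day were close together, and the log2 fold change went from 1.47 (SE 0.07, adjusted p = 1.08e-16) on day 3 to -1.8 (SE 0.07, adjusted p = 2.09e-17) on day 10 and 1.19 (SE 0.07, adjusted p = 2.32e-14) on day 14. Cxcl14 and Cxcl9 were 2 of the 5 members that passed as higher on day 14, with Cx3cl1, Cxcr6 and Cxcr1. Cx3cl1 (0.28) did not pass in 5 of 8 fits without 1 library, namely day 0 replicates 2 and 3 and day 14 replicates 2, 3 and 4, and was 0.53 without day 0 replicate 4. The day 14 libraries of Cxcl14 lay above every day 0 library. Cxcl16, the ligand of CXCR6, read 29.2, 21.6, 24.2 and 24.5 FPKM on day 0, 52.4, 48.9, 50.6 and 50.8 on day 3 (log2 fold change 1.08, SE 0.09, adjusted p = 1.08e-11) and 11.4, 12.7, 15.2 and 15.8 on day 14 (log2 fold change -0.98, SE 0.09, adjusted p = 2.02e-10). Cx3cl1 (fractalkine) moved little, at 3.76, 3.24, 3.59 and 5.36 FPKM on day 0 and 3.9, 4.43, 3.88 and 4.28 on day 3 (log2 fold change 0.11, SE 0.12, adjusted p = 0.43). Xcl1, which attracts XCR1-bearing dendritic cells, fell from 4.45, 7.58, 6.14 and 6.84 FPKM to 2.87, 2.87, 1.92 and 1.98 on day 3 (log2 fold change -1.32, SE 0.21, adjusted p = 3.16e-06).

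The interferon-inducible ligands of CXCR3 were never called. Cxcl9 passed as higher on all 6 days, but Cxcl10 on days 3 and 5 only, and its mean was lowest on day 10, at 5.80 FPKM. Cxcl9 read 3.56, 4.13, 3.28 and 3.4 FPKM on day 0, 7.75, 8.66, 7.98 and 8.2 on day 3 (log2 fold change 1.24, SE 0.10, adjusted p = 1.24e-11) and 6.86, 8.4, 7.03 and 9.52 on day 14 (log2 fold change 1.02, SE 0.10, adjusted p = 8.87e-10). Cxcl10 read 9.26, 3.99, 3.07 and 8.39 FPKM on day 0, where replicates 1 and 4 were the higher pair, and 14.7, 15.2, 13.3 and 17.2 on day 5 (log2 fold change 1.33, SE 0.21, adjusted p = 4.55e-06). The day 3 libraries of Cxcl9 and the day 5 libraries of Cxcl10 lay above every day 0 library. Their receptor Cxcr3 read 1.8, 2.06, 2.5 and 1.52 FPKM on day 0, 2.66, 3.29, 3.19 and 3.7 on day 5 (log2 fold change 0.74, SE 0.21, adjusted p = 0.00309) and 0.304, 0.851, 0.392 and 0.712 on day 14 (log2 fold change -1.93, SE 0.24, adjusted p = 5.46e-08). The 7 T cell markers summed to 26.7 to 34.5 FPKM on day 0, 21.4 to 25 for day 5 and 13.3 to 18 at the end, on day 14. Cd3g carried this sum, at 17.9 FPKM on day 0 and 8.88 on day 5. The markers did not move together. On day 5, 3 passed as higher and 3 as lower (29% and 30.6% of all genes), and on day 14, 1 and 5 did (28.2% and 34.5%). Their part was not tested.

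Of the 11 tested CC ligands of lymphatics, epidermis and lymphoid cells, 1 passed as higher and 4 as lower on day 3, where 31.8% and 34.8% of all genes did. On day 14 none passed as higher and 6 as lower, where 28.2% and 34.5% of all genes did. Ccl27a, the ligand of CCR10 made by keratinocytes, read 23.4, 22.6, 27.4 and 26.3 FPKM on day 0, 4.76, 5.03, 3.66 and 4.19 on day 3, and later 18.1, 20.01, 21.4 and 22.5 on day 14. It dropped by 2.44 on the log2 scale on day 3 (SE 0.11, adjusted p = 3.87e-17) and by 0.41 on day 14 (SE 0.10, adjusted p = 7.09e-04), so most of the loss had been regained. Most epidermal keratinocyte markers fell with it. On day 3, 5 of 6 passed as lower, among them Krt10 (-2.06), Lor (-1.94) and Dsg1a (-1.63), and their sum of 1659 to 3323 FPKM on day 0 and 1667 to 2130.2 on day 3 was carried by Krt5 and Krt14. Their part was not tested. Ccl21a, which guides CCR7-bearing cells into lymphatics, read 184, 265, 273 and 161 FPKM on day 0, 59.96, 71.4, 74.9 and 69.8 on day 5 (log2 fold change -1.63, SE 0.16, adjusted p = 1.56e-09), 219, 157, 187 and 152 on day 12 and 48.8, 52.4, 60.8 and 66.5 on day 14 (log2 fold change -2.07, SE 0.17, adjusted p = 2.11e-11). Its day 5 value was -1.27 against day 0 replicates 1 and 4, under the limit for a call. Of 5 lymphatic endothelial markers, 3 passed as lower on day 3 (Lyve1, Prox1 and Mmrn1) and Pdpn as higher (2.06), and all 5 passed as lower on day 14. Their part was not tested. Values of Ccl21a, Ccl21b, Ccl27a, Ccl27b and Ccl19 are uncertain, since from 45.0% (Ccl27a) to 100% (Ccl21b) of their 50-base words recur in other transcripts.

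Ccl20, the ligand of CCR6, was divided by the day 0 split. It read 0.958, 5.91, 5.46 and 0.034 FPKM on day 0 and 0.0962, 0.161, 0.157 and 0.39 on day 14 (log2 fold change -4.05, SE 0.74, adjusted p = 2.84e-05), and was called lower on 5 of the 6 days. Against day 0 replicates 1 and 4 these calls were lost, with 0.40 on day 5, 0.06 on day 7 and -1.37 on day 14. Those of days 5, 7 and 12 were also lost in the fit of 8 libraries. Between wound days it did fall, from 3.84, 2.65, 2.9 and 2.59 FPKM on day 3 to 0.60, 0.527, 0.278 and 0.721 on day 7 (log2 fold change -2.55, SE 0.65, adjusted p = 0.00182). The day 7 libraries lay below every day 3 library. Ccl22, a ligand of CCR4, read 5.71, 6.57, 7.11 and 7.4 FPKM on day 0, 11, 10.3, 11.2 and 12.6 on day 7 (log2 fold change 0.75, SE 0.12, adjusted p = 6.51e-06) and 2.88, 4.29, 5.09 and 4.36 on day 14 (log2 fold change -0.81, SE 0.12, adjusted p = 1.74e-06). Ccl17, the other ligand of CCR4, stayed below 1 FPKM, with 0.785, 0.757, 0.416 and 0.946 on day 0 and 0.287, 0.325, 0.12 and 0.433 on day 5 (log2 fold change -1.27, SE 0.39, adjusted p = 0.0059), a value that did not pass against day 0 replicates 2 and 3, at -0.96. Ccl19, a ligand of CCR7, read 1.67, 5.44, 1.84 and 1.59 FPKM on day 0 and 0.998, 0.956, 1.25 and 0.827 on day 14, and its lower call (log2 fold change -1.51, SE 0.50, adjusted p = 0.0107) was lost without day 0 replicate 2, at -0.83. Ccl28, a ligand of CCR10, read 0.156, 0.0637, 0.107 and 0.172 FPKM on day 0 and 0.0464, 0.0647, 0.0767 and 0.0834 on day 5 (log2 fold change -0.83, SE 0.36, adjusted p = 0.0516). Of the remaining ligands, Ccl21b and Ccl25 passed on no day against day 0. Ccl1 was called lower on day 5 on 14, 24, 10 and 32 counts on day 0 and 4, 6, 16 and 2 on day 5 (log2 fold change -1.5, SE 0.62, adjusted p = 0.0388), and that call was lost both with quality weights and in the fit of 8 libraries. Ccl27b was called lower on day 3 (log2 fold change -2.81, SE 0.98, adjusted p = 0.0138), a call lost against day 0 replicates 1 and 4, and higher from day 3 to day 14 (log2 fold change 3.9, SE 0.96, adjusted p = 7.72e-04), a value of 2.41 without day 14 replicate 2.

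Of the lymphocyte and dendritic cell receptors, Cxcr4 and Ccr7 rose. Cxcr4, the CXCL12 receptor found on most leukocytes, read 6.4, 2.21, 2.7 and 4.71 FPKM on day 0, 19.1, 20.1, 19.8 and 21.3 on day 3 (log2 fold change 2.38, SE 0.18, adjusted p = 4.42e-12) and 12.2, 12.3, 13.4 and 12.9 on day 10 (log2 fold change 1.61, SE 0.18, adjusted p = 2.01e-08), the last under the limit for a call against day 0 replicates 1 and 4, at 1.14, and without day 0 replicate 2 or 3. Ccr7, worn by migrating dendritic cells and naive T cells, read 1.84, 0.90, 0.928 and 1.66 FPKM on day 0 and 4.64, 6.01, 5.76 and 5.09 on day 3 (log2 fold change 2.07, SE 0.19, adjusted p = 3.14e-10). Neither overlapped day 0 on day 3. Xcr1, of cross-presenting dendritic cells, went the other way, from 1.16, 1.13, 0.903 and 1.54 FPKM on day 0 to 0.265, 0.167, 0.166 and 0.253 on day 3 (log2 fold change -2.41, SE 0.22, adjusted p = 2.60e-10). Ccr4, of skin-homing T cells, fell from 0.874, 1.15, 1.09 and 0.843 FPKM on day 0 to 0.127, 0.16, 0.206 and 0.20 on day 14 (log2 fold change -2.64, SE 0.23, adjusted p = 9.47e-11). Of 6 dendritic and Langerhans cell markers, Ciita, Flt3 and Itgax passed as higher on day 3 and Cd207 (-2.24) and Cd209a (-0.90) as lower, and their part was not tested. Cxcr6 read 1.85, 3.03, 2.74 and 1.34 FPKM on day 0 and 3.68, 3.86, 3.85 and 4.72 on day 14 (log2 fold change 0.72, SE 0.18, adjusted p = 0.00124), and against day 0 replicates 2 and 3 the value was 0.36 and did not pass. Ccr10, the receptor of CCL27 and CCL28, read 0.0594, 0.358, 0.0443 and 0.0158 FPKM on day 0 and 0.164, 0.329, 0.38 and 0.106 on day 14, and the groups overlapped (log2 fold change 0.89, SE 0.65, adjusted p = 0.239). Ccr8 was called lower on days 3, 5 and 10 at levels below 1 FPKM, and Ccr6 and Ccr9 were never called.

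The atypical receptors split on day 3 but not later. All 3 passed as lower on days 10, 12 and 14 (26.9%, 25.6% and 34.5% of all genes), with Ackr3 at -0.58, -0.60 and -0.85. Ackr3, which removes CXCL12, read 22.4, 30.5, 28.6 and 20.2 FPKM on day 0 and 54.9, 56.5, 53.5 and 59.2 on day 3 (log2 fold change 1.2, SE 0.09, adjusted p = 2.77e-12). Ackr4, which removes CCL19, CCL21 and CCL25, read 17.7, 15.9, 14.5 and 23 FPKM on day 0, 4.45, 3.64, 3.33 and 2.81 on day 3 (log2 fold change -2.27, SE 0.13, adjusted p = 1.94e-14) and 11.3, 11.2, 11.4 and 9.12 on day 12 (log2 fold change -0.87, SE 0.13, adjusted p = 1.96e-06). Ackr2, which removes inflammatory CC chemokines, read 3.16, 5.23, 5.12 and 3.75 FPKM on day 0, 1.76, 1.45, 1.33 and 1.1 on day 3 (log2 fold change -1.56, SE 0.15, adjusted p = 6.26e-10) and 0.989, 1.28, 1.29 and 1.17 on day 14 (log2 fold change -1.99, SE 0.15, adjusted p = 1.03e-11). Its day 3 value was near the limit for a call, at -1.19 against day 0 replicates 1 and 4, and was also under it without day 0 replicate 2 or 3 or day 3 replicate 3 or 4. Ackr2 and Ackr4 lay below every day 0 library on day 3, and Ackr3 above. Ackr1 and Cxcl11 were not analysed here.

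**Figure D4:**
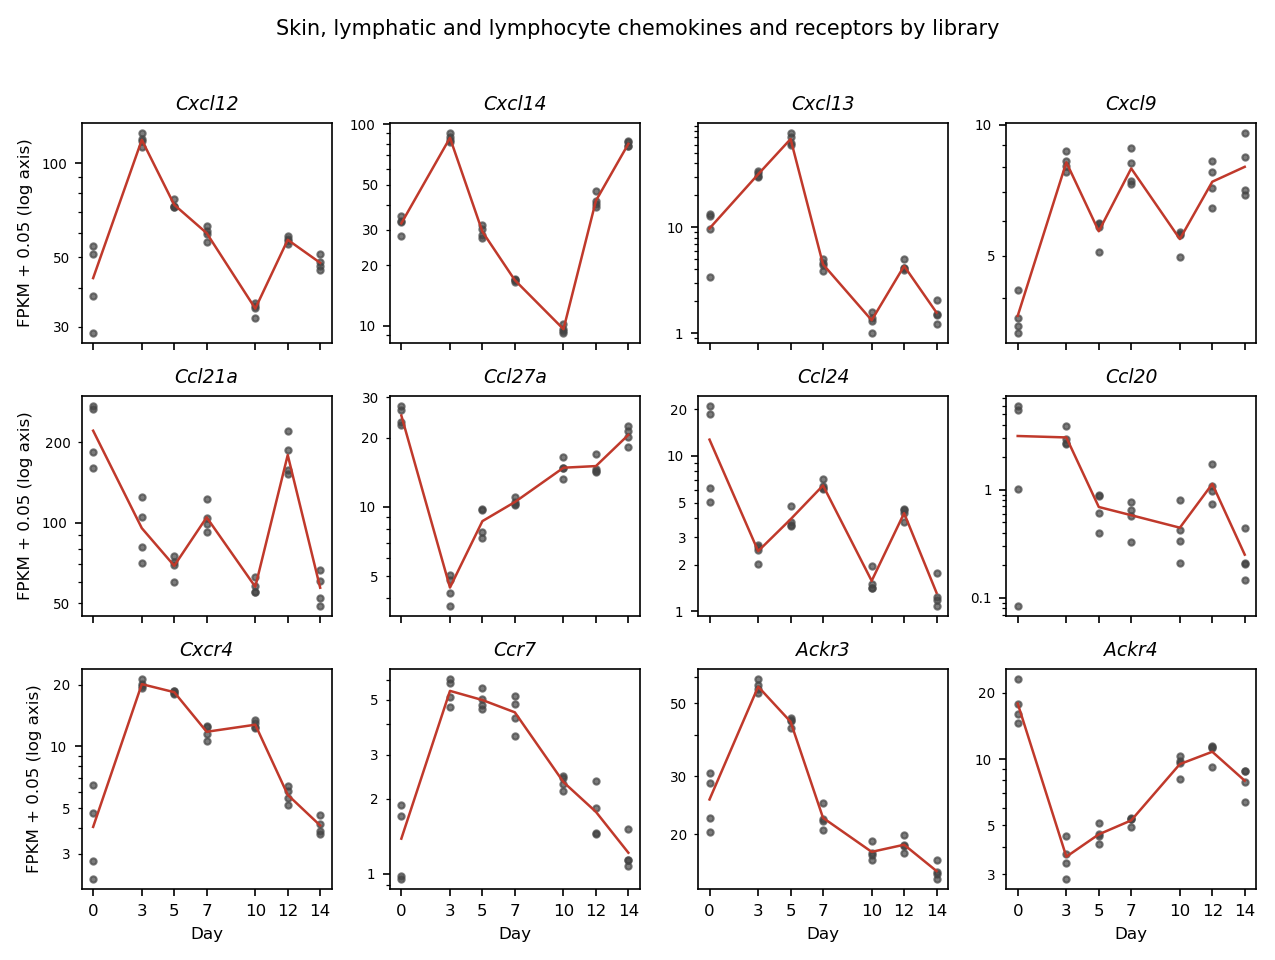
FPKM plus 0.05 on a log axis for 12 ligands and receptors of skin, lymphatics and lymphocytes by day, with a point for each library and a line through the means of 4. Cxcl14 falls to 9.59 FPKM on day 10 and climbs to 79.9 on day 14, and the wide day 0 spread of Ccl20 and Ccl24 stands out.

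Summed over all ligands, FPKM rose from 1231 ± 288 on day 0 to 3098 ± 68.5 on day 3 and 2630 ± 216 on day 5, then fell to 500.4 ± 28.2 on day 14. The receptors went from 92.3 ± 5.36 to 352 ± 10.5 on day 3 and 46.7 ± 3.36 on day 14. Ccl8 had the largest mean share of the ligands on each day, with 40.8% of the sum on day 0, 24.4% on day 3, and 42.9% and 18.7% on days 7 and 14. Cxcl2 supplied 8.54% on day 3 and 12.4% on day 5. On day 14 Cxcl14 was the second ligand, with 16.0%. Among receptors Ackr3 led on days 0, 10, 12 and 14, Ccr1 on days 3 and 5, with 24.2% and 24.4%, and Ccr2 on day 7. The day 3 lead was narrow, with Ccr2 at 23.9%. The libraries overlapped, at 23.2 to 25.7% for Ccr1 and 23.1 to 24.3% for Ccr2. These are shares of FPKM, a scale per length, and they do not count protein.

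**Figure D5:**
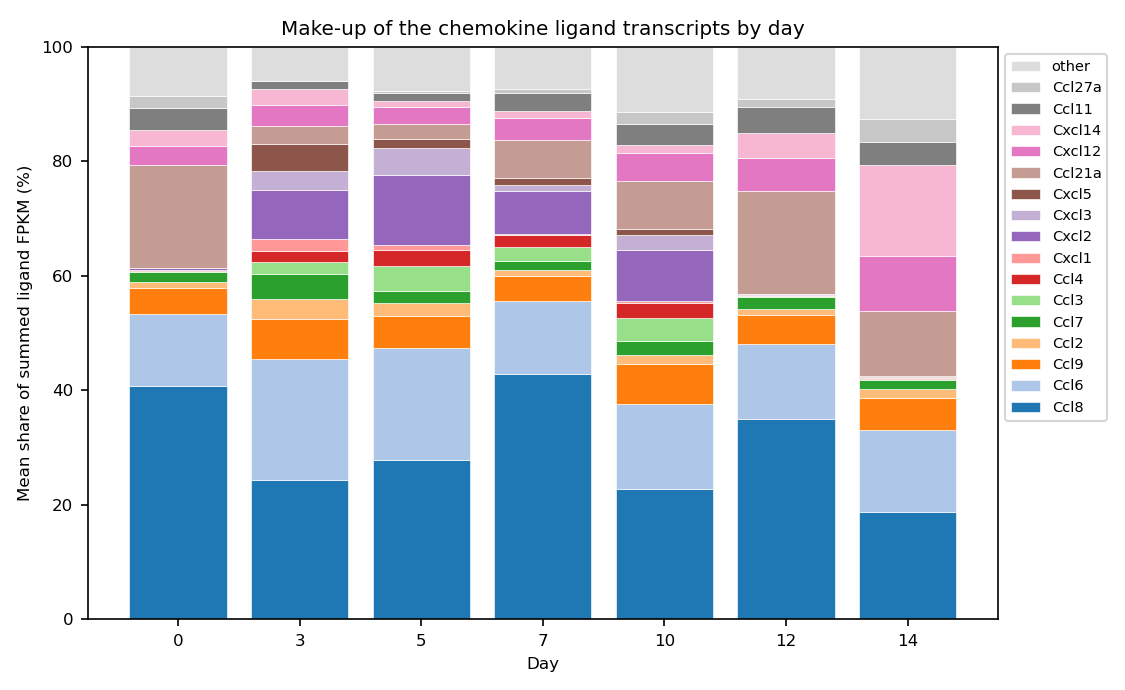
Mean share of the summed ligand FPKM taken by each of 16 ligands and by the others together, by day, as stacked bars from 0 to 100%. Ccl8 is the largest part of every bar, Cxcl2 reaches 12.4% on day 5, and Cxcl14 reaches 16.0% on day 14.

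Genes of the pathway outside the symbol rule were read against the 31.8% of all genes that passed as higher and the 34.8% that passed as lower on day 3. All 6 ligands and receptors with other names passed as higher on day 3, among them Ppbp, the precursor of the ELR chemokine CXCL7 (log2 fold change 6.05, SE 0.26, adjusted p = 2.59e-17), and Pf4, which is platelet factor 4 (log2 fold change 1.74, SE 0.10, adjusted p = 1.92e-14). So did 7 of 7 receptors of other chemoattractants, including the formyl peptide receptors Fpr1 (log2 fold change 6.3, SE 0.36, adjusted p = 7.97e-15) and Fpr2 (log2 fold change 4.81, SE 0.24, adjusted p = 8.65e-16) and the C5a receptor C5ar1 (log2 fold change 2.57, SE 0.10, adjusted p = 7.03e-18). Of 17 signalling genes, 16 passed as higher on day 3 and 14 as lower on day 14. All 9 neutrophil markers and all 8 monocyte and macrophage markers passed as higher on day 3, and 4 and 8 of them passed as lower on day 14, and their part in these lists was not tested. Of 7 proteases that trim chemokines, 4 passed as higher and 2 as lower on day 3, the latter near the share of all genes. On day 14, when 34.5% of all genes passed as lower, none of the first 2 lists passed as higher, while 4 of 6 and 7 of 7 passed as lower.

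Neighbouring genes did not all share a course, and their counts stand beside 31.8% of all genes passing as higher and 34.8% as lower on day 3. At chr4:41769467-42773993, Ccl27a, Ccl21b, Ccl27b, Ccl19 and Ccl21a gave none higher and 3 lower on day 3. At chr11:82035571-82305690, with Ccl2, Ccl7, Ccl11, Ccl12, Ccl8 and Ccl1, 4 passed as higher and 1 as lower. The 4 ELR genes on chromosome 5 gave 4 of 4 higher.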

How the data were processed

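The authors deposited 2 tables of the 28 libraries, raw counts per gene symbol and FPKM. Libraries had been made from TRIzol RNA with a VAHTS Universal V6 kit. Per the labels' processing notes, fastp, R 3.2.0 and the mm10 build were used. The aligner, counter, annotation and strand setting are not given in the sources used here, so reads of overlapping genes cannot be told apart. For all 16784 genes with a mean of at least 10 counts, the FPKM the authors deposited equalled, to within 0.001%, the count divided by a fixed length per gene and the library total.

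Groups came from the labels, 4 libraries per day and none unassigned. Counts were fitted in R 4.3.3 with edgeR 4.0.16 (TMM, filterByExpr, quasi-likelihood test, 1 fit of all 28 libraries, 18107 genes), in 8 comparisons and a joint test, with Benjamini-Hochberg adjustment in each. The study's screen used the same fold limit with DESeq2. Depth was 36706513 to 40655764 counts per library, and floors cover counting error only. Alternatives used DESeq2 1.42.0 and limma 3.58.1, other normalizations, filters and covariates, and FPKM with pseudocounts of 1 and 0.1. Symbols were matched to GENCODE M21 (58 of 58) and promoters to RefSeq (44). No protein sequence was used, so planned protein features were not computed.

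The members and lists were chosen with earlier results of these data known. Every member enters the counts, and the values of 1 member are not reported here. Values per library are given for a list of members of each role and for the 3 largest rises and falls called in each comparison with a mean of at least 1 CPM. Replicate numbers do not pair libraries: 1 of 84 same-number pairs had deviations correlated above 0.1.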

Additional observations from a re-analysis of the deposited data

Results flagged for a closer look

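In 16 of 307 groups of 4 libraries, 1 library stood apart from the other 3 by its gap on the log2 CPM scale. Chance gives about 1 in 20 groups, or 15.4 here. High libraries were Cxcl5 on day 14 in replicate 3 at -0.82 (the others -1.90 to -1.79) and Cxcl13 on day 12 in replicate 1 at 2.45 (the others 2.09 to 2.14). High too were Ccl8 on day 5 in replicate 4 at 8.8 (the others 8.54 to 8.57) and Ccl9 on day 0 in replicate 1 at 7.76 (the others 7.11 to 7.17). High too were Ccl19 on day 0 in replicate 2 at 1.68 (the others -0.05 to 0.16) and Ccl24 on day 10 in replicate 2 at 1.38 (the others 0.92 to 0.99). High too were Cxcr6 on day 10 in replicate 2 at 2.85 (the others 2.12 to 2.22) and Cxcr1 on day 14 in replicate 4 at -2.20 (the others -3.75 to -3.73). Low libraries were Cxcl10 on day 12 in replicate 4 at 2.31 (the others 2.66 to 2.68) and Ccl17 on day 12 in replicate 2 at -1.74 (the others -0.25 to -0.18). Low too were Ccl19 on day 12 in replicate 4 at -0.18 (the others 0.54 to 0.68) and Ccr1 on day 12 in replicate 3 at 2.86 (the others 3.39 to 3.49). Low too were Cx3cr1 on day 10 in replicate 1 at 2.67 (the others 2.79 to 2.81) and Cx3cr1 on day 14 in replicate 3 at 1.01 (the others 1.42 to 1.5). Low too were Ackr2 on day 10 in replicate 1 at 2.48 (the others 2.61 to 2.64) and Ackr4 on day 12 in replicate 4 at 4.53 (the others 4.81 to 4.87). Replicate 4 of day 12 was the low library in 3 of these groups.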

How the results depend on the processing

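Of 239 counts of called members recomputed with another setting, 199 stayed within 1.5 times. A minimum of 10 counts in every library, which removes members near 0 in any library, gave 13, 11, 4, 2 and 0 higher on days 3, 5, 7, 10 and 14 and 1 lower on each of days 7 and 12. Between wound days it gave 1 higher and 8 lower for day 7 against 3, and 1 and 19 for day 14 against 3. limma on log2(FPKM + 1) gave 3, 2, 1, 5, 0 and 5 lower on days 3, 5, 7, 10, 12 and 14, 7 and 0 higher on days 7 and 14, and 0 and 1 higher between wound days. With a pseudocount of 0.1 it gave 3, 1, 0 and 10 lower on days 5, 7, 12 and 14, 1 and 0 higher on days 12 and 14, and 0 higher for day 7 against 3. An unadjusted p gave 4 lower on day 7 and 1 higher on day 12. Total counts gave 2 higher on day 12, quality weights 2 on day 12 and 0 on day 14, and a fit of the 8 libraries 0 on day 14. Day 0 replicates 1 and 4 alone gave 4 lower on day 3 and 2 higher on day 14. Replicates 2 and 3 alone gave 4 lower on day 7, 5 higher and 5 lower on day 12 and 2 higher on day 14. Both of these settings were chosen after seeing the data, and the cause of the split was not tested.

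Single members that reversed were Cxcl2 on day 12 (1.54 with quality weights, 1.77 against day 0 replicates 2 and 3) and day 14 (0.19 and 0.40), and, against replicates 1 and 4, Ccl11 on day 5 (0.15), Ccl20 on days 5 (0.40), 7 (0.065) and 12 (0.97), Ccl24 on day 7 (0.18) and Ccr3 on day 10 (0.30). Leaving out 1 library at a time gave, for days 3, 5, 7, 10, 12 and 14, 21 to 23, 17 to 20, 10 to 12, 8 to 9, 0 to 2 and 1 to 2 higher, and 6 to 8, 5 to 9, 2 to 3, 8 to 11, 2 to 5 and 14 to 17 lower. The highest counts on day 12 came without day 0 replicate 1 (2 higher) and replicate 4 (5 lower), and that on day 14 without replicate 2 (2 higher). Against upper quartile or total count scaling the median of all genes shifted by up to 0.18 (log2, day 14 against day 3). With the replicate number as a block, 22 members were called higher on day 3, 19 on day 5 and 15 lower on day 14. The numbers do not pair the libraries, of which 8 of 28 correlated best with their own number. The joint test was recomputed in the edgeR settings only (50 with the block).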
